A study of Mus musculus with 36 samples.

Results

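The first exon of multi-exon genes was examined for crosslinks of the RNA helicase D1PAS1 in mouse testis, by eCLIP. The windows described here are those that the deposited tables assign to exon number 1 of an annotated mouse gene, in genes that also have a listed window in a later exon. Neighbouring windows overlap, so only window numbers divisible by 3 were kept. In all, 42886 such windows in 15684 genes had a count in at least 1 of the 6 eCLIP libraries, of 2494551 kept windows of all annotated genes. Later exons held 326511 windows and the introns of the same class of genes 2048505.

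All 6 eCLIP libraries carry the genotype label KI (knock-in) and came from UV cross-linked testis, with male germ cell as the labelled cell type and no age given. The labels do not say what the knock-in allele carries. They comprise 3 precipitates of D1PAS1 (IP) and 3 size-matched inputs (SMInput). RNA-seq of D1Pas1 wild-type (WT) and knockout (KO) testes at post-natal day 18, with 3 libraries per genotype, was used as a separate readout. The labels do not say whether libraries of a group came from separate animals, so p-values measure the spread between libraries, which may be technical. In the tests of genes and windows, the estimate of that spread was shared over all features tested. Very small p-values there thus do not measure the spread of a single gene or window.

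In eCLIP, RNA is crosslinked to protein by UV light, the protein is precipitated, and reverse transcription tends to stop at the crosslinked base, which gives a count at single-base resolution. The input is RNA crosslinked to all proteins of a similar size range and serves as the background. D1PAS1 is a germ cell DEAD-box helicase related to DDX3X and DDX3Y, a family known for unwinding structured RNA, including in the leaders of mRNAs. Exon 1 holds the capped start of the transcript and, in many mRNAs, all or most of the 5′ untranslated region.

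The transcript starts of 7 genes whose exon 1 counts were higher in the IPs are printed to show the sequence in which those exons open. The first 30 bases are from RefSeq (GRCm38.p6), on the coding strand, and capitals mark the longest unbroken run of G or C. The bases of the counted windows themselves were not used here.
Ubap1: tgatgtcagacgcctaaaGGGGCGGagcgt
Pds5b: ctggctgcggaaggggaGGGGGGGCGGGag
Trim41: gaGCGGGCCCGCCCCtcagcttccggcact
Nabp1: agttgctgcttgggaCGCGGGCtgcgcggt
Hnrnpd: ccattttaggtggtCCGCGGCGGCGCCatt
Tnp1: ggccttgcaaaGCCCCtcatttcggcagaa
Fam208b: agttttcactttctgtcttCGGagcctgct
They lie at chr4:41348996-41349025 (plus strand, Ubap1), chr5:150673827-150673856 (plus, Pds5b), chr11:48817362-48817391 (minus, Trim41), chr1:51478370-51478399 (minus, Nabp1), chr5:99978909-99978938 (minus, Hnrnpd), chr1:73015870-73015899 (minus, Tnp1) and chr13:3611079-3611108 (minus, Fam208b). The longest run was 13 bases in Trim41 and Hnrnpd, 11 in Pds5b, 7 in Ubap1 and Nabp1, 5 in Tnp1 and 3 in Fam208b. Other genes higher in the IPs ranged from 3 bases in Gna14 to 23 in 4930453N24Rik. Genes lower in the IPs ranged from 2 in Gm13270 to 9 in Thap12. Over 27025 RefSeq starts of the table the median longest run was 4 bases, and 21.5% of starts had a run of at least 7. Of the distinct symbols of the member genes, 70.0% had a start sequence, so base composition was not compared between groups, and the 7 sequences are a description.

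Depth differed widely between the libraries. Kept windows held 142435, 137231 and 99602 counts in IP 1, 2 and 3, and 260087, 2714237 and 3635415 in input 1, 2 and 3, so that input 1 stood apart as the shallow input. Exon 1 windows numbered 2718, 2182 and 1923 in the IPs and 2561, 22613 and 27146 in the inputs. Between 66.5% and 86.7% of a library's exon 1 windows held a single count. Only 249 windows had a count in all 3 IPs, and 72 of these had none in any input. A window that is absent from an IP is therefore not shown to lack crosslinks.

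The exon numbers and window numbers were checked against RefSeq strands. Exon number 1 was the 5′ exon on both strands, whereas window numbers ran along the genome across the whole gene. On the plus strand the median of the highest exon 1 window number was 10 over 6444 genes, against 880 in the last exon of 9304 genes. On the minus strand the order was the opposite, with 1024 in exon 1 and 62 in the last exon. Low window numbers thus mark the start of exon 1 only in plus-strand genes. Windows are up to 50 nt long, and gene length per highest window number had a median of 20.1 nt.

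Exon 1 took a larger share of exonic crosslinks in the IPs than in the inputs. Exon 1 held 18.5%, 15.9% and 16.8% of the exonic counts of these genes in IP 1, 2 and 3, and 10.8%, 11.8% and 12.04% in input 1, 2 and 3. Every IP lay above every input. The means were 17.1% ± 1.34 (SD, n = 3) and 11.5% ± 0.662 (SD, n = 3), a ratio of 1.48, with an exact two-sided permutation p of 0.1, which is the smallest that 3 against 3 libraries allow.

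Later exons did not show that separation. Exon 1 made up 3.17% ± 0.561 of exonic and intronic counts in the IPs and 1.85% ± 0.168 in the inputs (SD, n = 3 each), again with no overlap (exact permutation p = 0.1). For later exons the shares were 15.3% ± 1.95 and 14.2% ± 0.95 (SD, n = 3 each), and the groups overlapped (exact permutation p = 0.5). The difference in the exon 1 share of exonic counts did not rest on input 1, since it was 5.17 percentage points without that library and 5.54 with it. Gm16090, a lncRNA with the highest exon 1 count in each IP, raised the IP shares, and without it they were 16.3% ± 1.35 against 11.5% ± 0.679 (SD, n = 3 each).

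**Figure D1:**
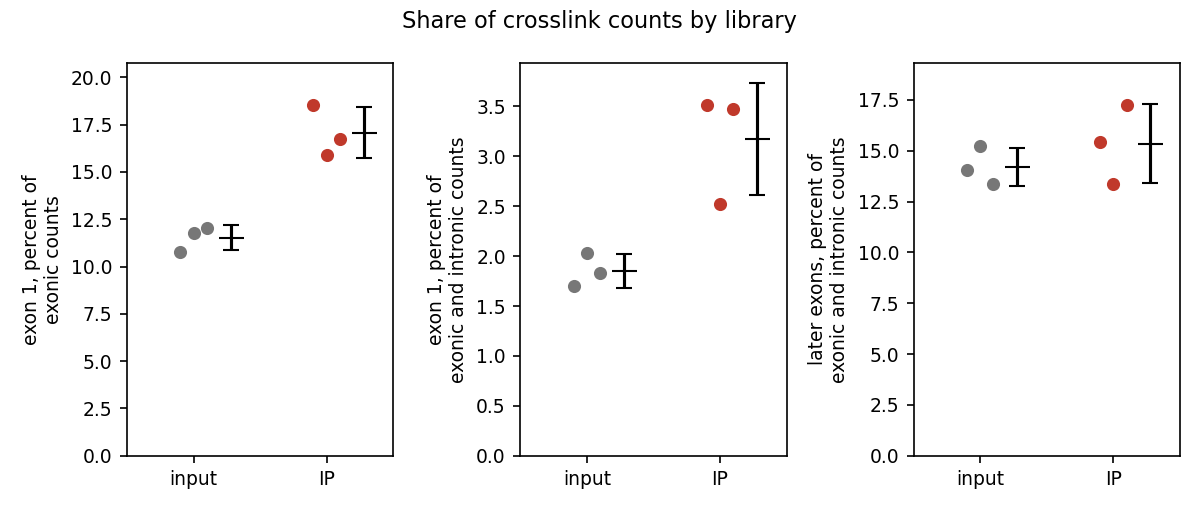
Share of crosslink counts by library, in percent, for exon 1 of exonic counts (left), exon 1 of exonic and intronic counts (middle) and later exons of exonic and intronic counts (right). Points are libraries and bars are the mean ± SD of 3. The IPs lie above the inputs for exon 1 in both panels (17.1% against 11.5% on the left), and the groups overlap for later exons.

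Counts were next summed over exon 1 per gene and compared between IP and input, to name the genes whose first exon was enriched. Of 4369 gene regions that passed the filter on low counts, 44 were exon 1 regions. By edgeR's quasi-likelihood test with Benjamini-Hochberg adjustment over all regions, 32 of these 44 were higher in the IPs (72.7%) and 7 lower (15.9%). Over all regions tested, 13.9% were higher and 10.6% lower, with 49.3% and 23.3% among later exons and 10.3% and 9.55% among introns. The median log2 fold change was 3.83 over the 44 exon 1 regions, 1.32 over 288 later exon regions and 0.01 over all regions. Because the IPs are shallow, 27 of the 32 higher regions passed the filter through the IPs alone, and all 7 lower ones through the inputs alone. Such regions had to differ, so these counts describe the 44 regions and not exon 1 as a whole.

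With a weaker filter of at least 6 counts over the 6 libraries, 5119 exon 1 regions were tested and 193 were higher in the IPs, 3.77%, against 1.98% of all 54367 regions. Under that filter 88 exon 1 regions were lower, 1.72%, against 6.05% of all regions. The median fitted log2 fold change then had the opposite sign, -3.26 over the 5119 exon 1 regions and -0.88 over all regions. Of the 5119, 2679 had no count in any IP, and their fitted values depend on the prior count. For 2626 of those, a floor of 3 counts over the IPs lay at or above the input level. With regions at 0 in a group set to that floor the median was 1.79, so the sign of the exon 1 median is set by the filter and by how zeros are treated.

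Fam208b (ENSMUSG00000033799.10) had an exon 1 signal that the inputs lacked. It had 12, 8 and 8 exon 1 counts in IP 1, 2 and 3 and 0 in each input, and the IPs were at least 183-fold higher, from a floor of 3 counts over the inputs (edgeR adjusted p = 0.000142). Its later exons held 2 counts in each IP and 3, 95 and 66 in the inputs, so the transcript was present in the inputs.

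Ubap1 (ENSMUSG00000028437.14), which encodes a subunit of the ESCRT-I membrane sorting complex, had 20, 9 and 18 exon 1 counts in the IPs and 0, 1 and 1 in the inputs. All 3 IPs were above all inputs, with a ratio of 461 and a 95% interval of 121 to 3921 that covers counting error only (edgeR adjusted p = 7.91e-05). Oaz1, the antizyme that restrains polyamine synthesis, had 9 counts in each IP and 1, 0 and 4 in the inputs, without overlap in CPM, the counts scaled to library size. Its log2 fold change was 6.54 ± 0.65 (SE; edgeR adjusted p = 0.000231).

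Among genes with more input counts, Nabp1, a single-stranded DNA binding protein of the DNA damage response, had 33, 40 and 59 counts in the IPs and 0, 18 and 14 in the inputs. Its levels were 249, 282 and 653 CPM against 0, 6.24 and 3.48 CPM, and its log2 fold change was 6.39 ± 0.52 (SE; edgeR adjusted p = 9.28e-05). Pds5b, a regulator of cohesin, had 38, 34 and 56 counts in the IPs and 3, 24 and 28 in the inputs. The IPs lay at 287, 239 and 620 CPM and the inputs at 11.8, 8.32 and 6.96 CPM, far apart in both genes, and the log2 fold change of Pds5b was 5.54 ± 0.42 (SE; edgeR adjusted p = 8.41e-05). Dynll2, a dynein light chain, had 20, 9 and 13 counts against 1, 5 and 3, again without overlap (log2 fold change 6.40 ± 0.53, SE; edgeR adjusted p = 0.000105).

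Gm16090 held the most exon 1 counts of any tested gene in each IP. It had 256, 216 and 154 counts, or 1934, 1520 and 1705 CPM, in the IPs and 17, 57 and 38 counts, or 67.1, 19.8 and 9.45 CPM, in the inputs. Input 1 was the highest input and still lay far below the lowest IP, and the log2 fold change was 6.25 ± 0.63 (SE; edgeR adjusted p = 0.000251).

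The other genes with the 10 largest changes were Fam20a, a secretory pathway pseudokinase (30, 11 and 22 counts against 0, 2 and 5), Gna14, a G protein alpha subunit (9, 16 and 16 against 1, 5 and 5), and the lncRNA Gm11696 (21, 11 and 16 against 0, 6 and 9). In all 32 higher genes every IP was above every input in CPM. In 3 of them, Fam20a, Gm11696 and Slc16a6, the later exons were also tested and higher, with log2 fold changes of 6.20, 5.24 and 6.02, while their exon 1 values were 7.36, 5.94 and 5.08. Their introns were higher as well, with log2 fold changes of 6.54, 6.44 and 7.36, so the difference spanned the whole gene. In these 3 genes exon 1 did not differ in its change from the later exons by the within-gene test described further down (edgeR adjusted p = 0.204, 0.343 and 0.371).

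Germ cell genes with abundant input RNA were also among the higher exons, with smaller changes. Tnp1, a transition protein that packs spermatid DNA, had 25, 13 and 19 counts in the IPs and 13, 107 and 118 in the inputs, or 189, 91.5 and 210 CPM against 51.3, 37.1 and 29.3 CPM. The groups did not overlap, and the log2 fold change was 2.17 ± 0.34 (SE; edgeR adjusted p = 0.00269). Stag3, a meiotic cohesin subunit, had 33, 14 and 10 counts against 11, 131 and 157 (log2 fold change 1.88 ± 0.34, SE; edgeR adjusted p = 0.00615). All of the IP counts of Stag3 lay in window 15. The fullest position of each library there held 89.5% of the pooled IP and 95.6% of the pooled input counts. Nothing was thus left to test without windows dominated by 1 position. Ccnb1ip1, the crossover factor HEI10, had 48, 30 and 32 against 11, 268 and 123 (log2 fold change 2.40 ± 0.45, SE; edgeR adjusted p = 0.00682).

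The 7 lower exons had almost no IP counts. Among them were Thap12 (4, 3 and 2 counts in the IPs, 83, 486 and 382 in the inputs), Krba1 (2, 1 and 4 against 79, 376 and 278), Pank1 (1, 1 and 0 against 16, 185 and 205), Cav3 (1, 0 and 1 against 45, 291 and 303), Gm32352 (0, 0 and 2 against 58, 413 and 343) and Gm13270 (1, 0 and 0 against 31, 237 and 214). In all 7, the IPs were below the inputs in CPM. The ratio for Pank1, a pantothenate kinase, was 0.0967 with a 95% interval of 0.0117 to 0.352, and that for Cav3, a muscle caveolin, was 0.0614 with an interval of 0.00743 to 0.223, both for counting error only. The smallest change among them was in Thap12, with a log2 fold change of -2.87 ± 0.66 (SE; edgeR adjusted p = 0.0172). The calls of Thap12 and Krba1 were lost when any 1 IP was left out, with edgeR adjusted p of 0.0539 to 0.0589 and of 0.0773 to 0.142, and that of Gm32352 without IP 1 (edgeR adjusted p = 0.0503).

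Tdrd6, a tudor protein of the chromatoid body, was the only member of the piRNA pathway list among the 44. It had 11, 10 and 20 counts in the IPs and 4, 161 and 144 in the inputs, or 83.1, 70.4 and 221 CPM against 15.8, 55.8 and 35.8 CPM. Its IPs were above its inputs, and it missed the threshold (log2 fold change 1.46 ± 0.50, SE; edgeR adjusted p = 0.0669). Mtcp1 and Abi2 were among the 3 genes that overlapped between the groups, and Zfp619 was below in the IPs without passing (edgeR adjusted p = 0.097).

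The counts of calls moved with single libraries and with windows in which 1 base holds most counts. Without IP replicate 2, 96 exon 1 regions passed the filter and 65 were higher, and without input 1 the higher calls numbered 47. The lower calls numbered 3 without IP 1, 4 without input 1 or input 2, and 11 without input 3. Without windows of at least 10 counts in any library with at least 50% of them at 1 position, an alternative chosen after seeing the data, 25 regions were tested, 20 were higher and 3 lower. Of the 32 higher genes, 9 had over 50% of their IP exon 1 counts in such windows, among them Stag3, Gna14, Ap1s2, Itsn1 and Sema3c.

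**Figure D2:**
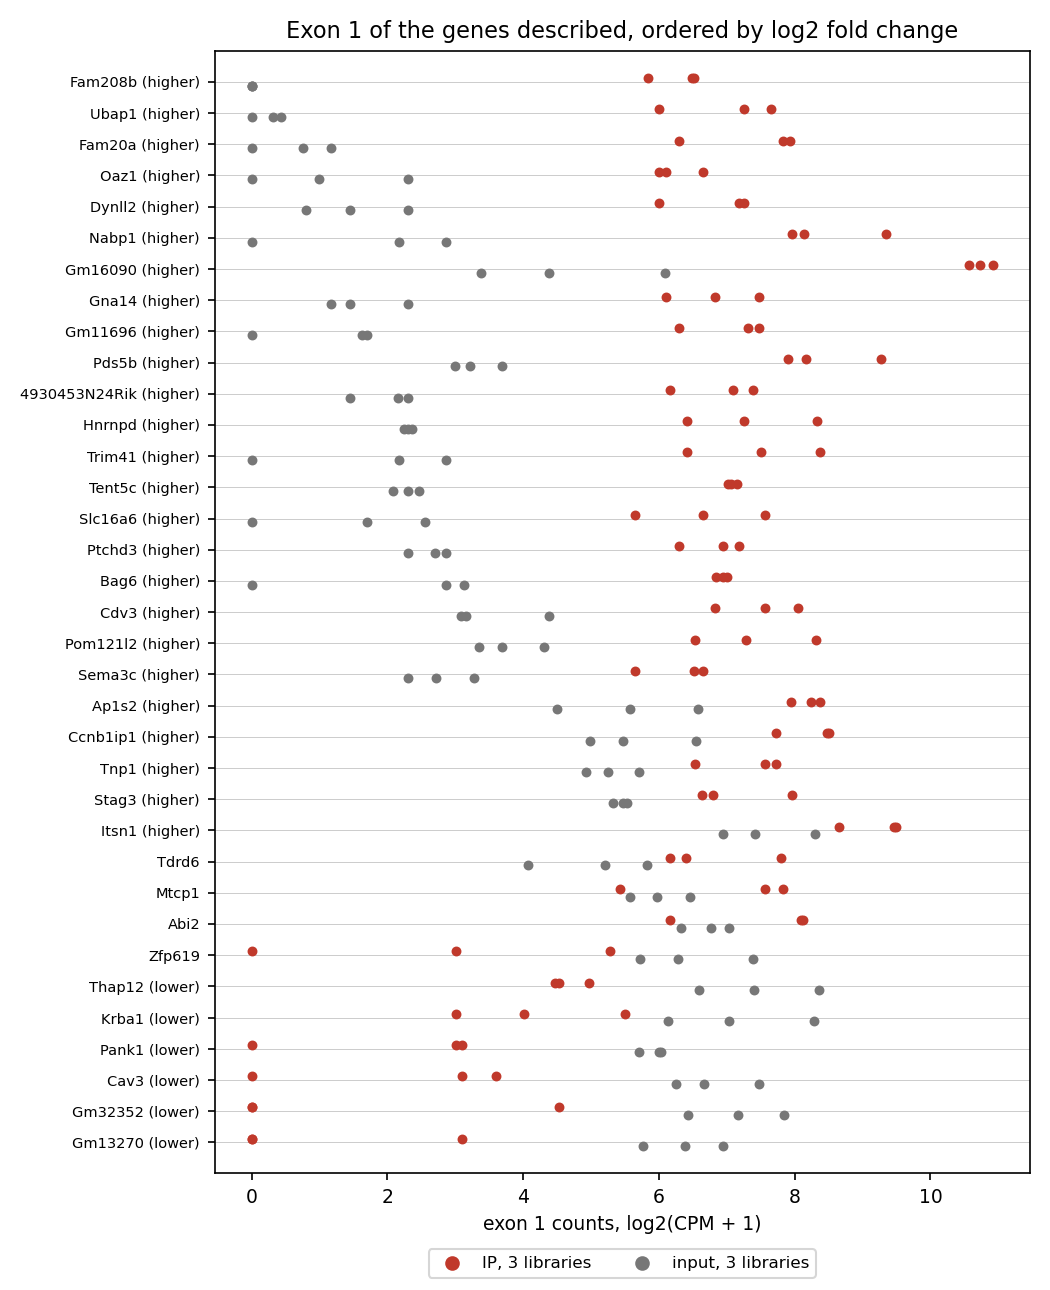
Exon 1 counts of tested genes described in the text, as log2(CPM + 1) on the horizontal axis, for 3 IP and 3 input libraries, ordered by log2 fold change, with the call in brackets. Each gene marked higher has all IP points to the right of all input points, and each gene marked lower has them to the left.

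Within a gene, exon 1 was then set against the later exons of the same library, so that transcript abundance and depth cancel. Each of the 90 genes tested had at least 10 counts in each region, summed over the 6 libraries. By edgeR's test of the interaction, 24 had a larger share in exon 1 in the IPs and 14 a smaller one (26.7% and 15.6% of those tested). The median log2 change was 0.08. A gene could pass the filter on low counts through 1 region of 1 group alone, and such a gene was favoured to differ. These calls therefore describe the 90 genes and not exon 1 as a whole. For genes with 0 counts in 1 region of the IPs the fitted value depends on the prior count, so shares are given for them. The IPs had no later exon count at all in 3 of the 24 higher genes, and no exon 1 count in 7 of the 14 lower ones.

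In Pds5b, exon 1 held 99.2% of the exonic counts of the pooled IPs and 29.1% of the pooled inputs, with later exon counts of 0, 1 and 0 in the IPs and 4, 53 and 77 in the inputs (edgeR adjusted p = 1.17e-16). In Tent5c, a poly(A) polymerase gene, exon 1 had 17, 20 and 12 counts in the IPs and later exons 1, 0 and 0, while the inputs had 1, 13 and 13 in exon 1 and 3, 60 and 42 later (98.0% against 20.5%; edgeR adjusted p = 1.7e-16). In Fam208b the share was 82.4% against 0% (edgeR adjusted p = 9.28e-21). In each of these genes the order of the regions was turned over between the IPs and the 2 deep inputs.

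The share of exon 1 also rose in Trim41, an E3 ubiquitin ligase (100% against 45.1%), Nabp1 (99.2% against 45.7%), Dynll2 (93.3% against 15.8%), Ubap1 (83.9% against 8.0%), Gna14 (97.6% against 47.8%), Sema3c, a secreted semaphorin (100% against 54.2%), and Gm16090 (100% against 88.2%), with edgeR adjusted p between 7.75e-13 for Dynll2 and 6.77e-05 for Gm16090. These shares are of pooled counts. In Gm16090 and Gna14 the libraries overlapped, since input 1 also had 100% of its exonic counts in exon 1. Over the 24 genes the IPs lay above all inputs in 17 and overlapped in 6, and in 1 gene input 1 had no exonic count. Hnrnpd, an RNA-binding protein of AU-rich elements, went from 34.6% to 92.4% (log2 change 4.52 ± 0.66, SE; edgeR adjusted p = 3.34e-10). Bag6, a chaperone, had exon 1 counts of 15, 18 and 11 in the IPs and 0, 18 and 31 in the inputs, against 5, 6 and 5 and 9, 149 and 98 in later exons. That is 73.3% against 16.1% of its exonic counts (log2 change 3.84 ± 0.58, SE; edgeR adjusted p = 1.41e-09). Of the 32 genes higher in the per gene test, 27 were tested within the gene and 20 passed in the same direction. The tests share the exon 1 counts and are not independent.

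The opposite pattern, crosslinks in later exons and few or none in exon 1, was present in the 14 lower genes. The IP shares lay below all inputs in 7 of them and overlapped in 7. Ly86, an accessory protein of RP105, had no exon 1 count in the IPs and 4, 18 and 32 in the inputs, with 11, 23 and 12 later exon counts in the IPs and 1, 12 and 25 in the inputs (0% against 58.7%; edgeR adjusted p = 3.29e-11). Col5a1, a fibrillar collagen, had 0% against 29.4% (edgeR adjusted p = 3.25e-05). Smg1, a kinase of nonsense-mediated decay, had 0 exon 1 counts in each IP beside 36, 27 and 44 later ones (0% against 10%; edgeR adjusted p = 0.00183).

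Hyal6 (12.2% in the inputs), Ulk2, an autophagy kinase (16.0%), Adam5 (8.7%) and Sugp1, a splicing factor (8.14%), also had 0% in the IPs, with edgeR adjusted p between 0.00232 for Hyal6 and 0.0449 for Sugp1. Input 1 had no exon 1 count either in Ulk2, Adam5, Sugp1 and Col5a1. With the replicate block the calls of Sugp1, Ulk2 and Adam5 were lost (edgeR adjusted p = 0.22, 0.119 and 0.078), and that of Sugp1 was lost with DESeq2 too (adjusted p = 0.134). The call of Hyal6 was lost with the weaker filter (edgeR adjusted p = 0.0731) and that of Smg1 without IP 1 (edgeR adjusted p = 0.0555). Cfap45, a ciliary protein, had 1, 0 and 2 exon 1 counts in the IPs beside 55, 46 and 42 later ones, and 1, 16 and 21 beside 2, 44 and 33 in the inputs (2.05% against 32.5%, log2 change -4.52 ± 0.86, SE; edgeR adjusted p = 1.64e-06). Hnrnpul2 followed with 1.89% against 34.0% (edgeR adjusted p = 6.76e-05), and Pank1 with 40.0% against 90.4% from only 5 exonic IP counts (edgeR adjusted p = 0.0363, and 0.184 with the replicate block). Odf1, a protein of the sperm tail, had 6, 5 and 4 exon 1 counts in the IPs beside 37, 29 and 22 later ones, and 0, 46 and 15 beside 2, 66 and 33 in the inputs (14.6% against 37.7%, log2 change -1.75 ± 0.60, SE; edgeR adjusted p = 0.00953). Rnf10, Phf7 and Trappc8 were the remaining lower genes, with 17.2%, 5.26% and 11.5% in the IPs and 68.4%, 39.2% and 62.9% in the inputs. Without IP replicate 2 the higher calls numbered 41, and without input 1 they numbered 32. Without input 2 or input 3 the lower calls numbered 9, and without the windows dominated by 1 position the calls were 14 higher and 12 lower.

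**Figure D3:**
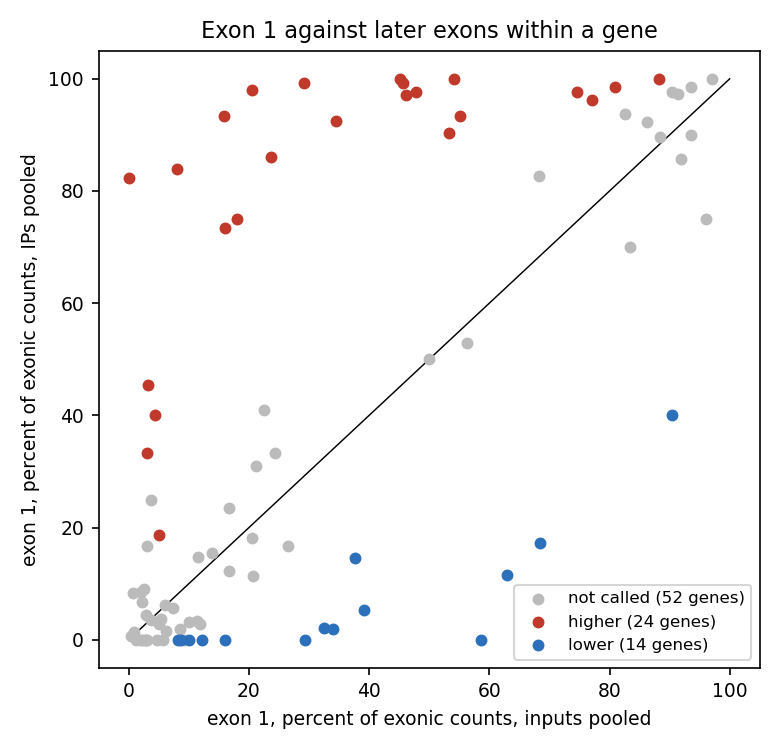
Share of exonic counts in exon 1, in percent, in the 3 inputs pooled (horizontal) and the 3 IPs pooled (vertical), for the 90 genes tested within the gene. Points above the line have a larger exon 1 share in the IPs. Red points are the 24 higher and blue points the 14 lower genes, among them Fam208b at 0% and 82.4%.

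Single exon 1 windows were tested among all windows, to place the crosslinks within the exon. Of 876 windows tested, 36 lay in exon 1, of which 23 (63.9%) were higher in the IPs and 8 (22.2%) lower by edgeR's test. Over all windows tested, 38.6% were higher and 52.3% lower, with 54.9% and 37% in later exons and 31.8% and 62.9% in introns. Without IP 2 or IP 3 the higher windows numbered 43 and 37. The lower ones numbered 20 or 21 without any 1 IP and 4 without input 1 or input 2. As with whole exons, a window that passed the filter through 1 group only had to differ.

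The 23 higher windows fell into a group with counts spread over many bases and a group with counts at 1 base. The counts at the fullest position of each IP were summed and divided by the pooled IP counts. This share was 9.76% to 21.3% in 15 windows and 68.8% to 97.1% in the other 8. The cut was placed at 50% after seeing the data, and no higher window lay between those ranges. Single IPs varied more, with 5 of 14 counts at the fullest position in IP 1 for Nabp1 window 585. For Stxbp3-ps window 69 it was 8 of 15 in IP 2. The files give the number of positions with a count and the count of the fullest position, and do not tell separate molecules from copies of 1.

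Ubap1 window 3 was the clearest of the spread kind. It had 20, 9 and 18 counts at 18, 9 and 16 positions in the IPs, at most 2 at any position, and 0 counts in each input. The IPs were at least 308-fold higher, from a floor of 3 counts over the inputs. Pds5b window 6 had 37, 32 and 45 counts at 22, 25 and 28 positions in the IPs and 0, 2 and 1 counts in the inputs, a ratio of 746 with a 95% interval of 249 to 3671 for counting error. The next kept window of Pds5b, number 9, showed the reverse, with 0, 0 and 1 counts in the IPs and 3, 20 and 27 in the inputs.

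Ptchd3 window 3 (19, 10 and 11 counts against 0, 0 and 1), Trim41 window 507 (15, 8 and 13 against 0, 0 and 1), Nabp1 window 588 (11, 11 and 12 against 0, 0 and 1), Dynll2 window 396 (13, 7 and 7 against 0, 0 and 1) and Hnrnpd window 1134 (15, 7 and 13 against 0, 0 and 2) had the same form. Pom121l2 window 39 had 19, 8 and 7 counts against 0, 0 and 2, and 4930453N24Rik window 957 had 12, 7 and 9 against 0, 0 and 2. In each of these every IP had counts at 5 or more positions and input 1 had none. In Nabp1 the exon 1 counts were not in 1 place, since windows 585, 588, 591, 600, 624 and 627 each had counts in at least 2 IPs, with 2, 7 and 11 counts in window 627.

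Tnp1 showed that neighbouring windows of 1 exon can differ. Window 39, the one nearer the 5′ end of this minus-strand gene, had 18, 7 and 16 counts at 17, 7 and 16 positions in the IPs and 0, 19 and 13 counts in the inputs (log2 fold change 4.72 ± 0.66, SE; edgeR adjusted p = 3.02e-12). Window 36, which did not pass the filter, had 7, 6 and 3 counts in the IPs and 13, 88 and 105 in the inputs. In Ccnb1ip1, window 921 was higher (20, 13 and 17 against 3, 33 and 33; edgeR adjusted p = 1.68e-06), and window 915 was not called (8, 4 and 8 against 6, 154 and 59; edgeR adjusted p = 0.124). In both pairs the called window was the nearer one to the transcript start. Cdv3, also on the minus strand, went the other way. Its called window 606 had 19, 14 and 6 counts in the IPs and 0, 3 and 1 in the inputs. Window 621, nearer the start, had 0, 0 and 1 against 1, 10 and 6. The order of windows was not tested over genes.

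The windows dominated by 1 base had a different form. Gna14 window 39 had 9, 16 and 16 counts in the IPs, of which 9, 15 and 14 lay at the fullest position, and 0, 2 and 0 counts in the inputs. Ap1s2 window 6, in an adaptor complex subunit gene, had 40, 35 and 30 counts in the IPs, with 38, 34 and 30 at the fullest position. The inputs had 24, 135 and 87 counts, with 22, 120 and 77 at their own fullest position. Itsn1 window 9, in an endocytic scaffold gene, had 93, 57 and 65 counts against 80, 486 and 491, nearly all at 1 position in every library, and was not called as a window (edgeR adjusted p = 0.0676), while the whole exon 1 of the gene was (log2 fold change 1.64 ± 0.37, SE; edgeR adjusted p = 0.0167). Ap1s2 and Itsn1 thus had piles in the inputs as well, whereas that of Gna14 was seen in the IPs alone. Whether the piles of different libraries lay at the same base cannot be read from these counts.

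Over all exon 1 counts, windows of at least 10 counts in any library that were dominated by 1 position held 12.7%, 10.8% and 9.39% in the IPs and 32.0%, 22.9% and 19.6% in the inputs. Exon 1 windows of at least 10 counts numbered 38, 20 and 23 in the IPs and 39, 516 and 737 in the inputs. Windows could thus be marked mainly through inputs 2 and 3, and the rule itself favours a larger share in the inputs.

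**Figure D4:**
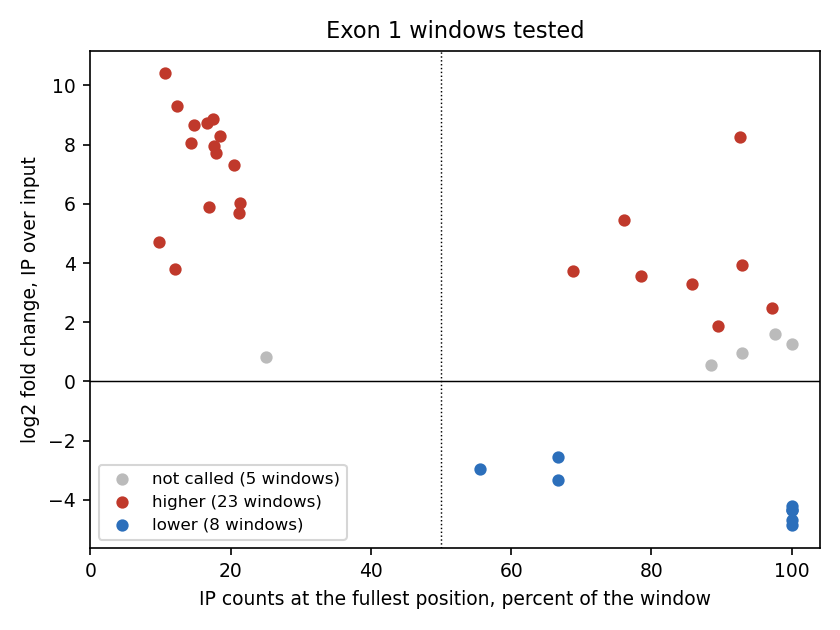
The 36 exon 1 windows tested, by the share of pooled IP counts at the fullest position of each IP (horizontal, percent) and the log2 fold change of IP over input (vertical). The dotted line marks 50%. The higher windows form a group of 15 below 21.3% and a group of 8 from 68.8% upwards.

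The spread of counts within exon 1 windows was compared at equal totals. In windows with exactly 3 counts, the mean number of positions was 2.24, 2.07 and 2.45 in the IPs (68, 58 and 85 windows) and 2.00, 2.43 and 2.24 in the inputs (61, 1312 and 1691 windows). The groups overlapped (2.25 ± 0.19 against 2.22 ± 0.217, SD, n = 3 each; exact permutation p = 0.8). The mean count at the fullest position was 1.75 ± 0.19 against 1.78 ± 0.217 (SD, n = 3 each; exact permutation p = 0.8). In later exons the position number was 2.40 ± 0.177 against 2.17 ± 0.174 (SD, n = 3 each; exact permutation p = 0.2), which also overlapped. At a total of 5 the IPs had 0.597 more positions (3.69 ± 0.55 against 3.10 ± 0.201) and a difference of -0.533 in the count of the fullest position (2.19 ± 0.559 against 2.73 ± 0.165, SD, n = 3 each), and the groups again overlapped (exact permutation p = 0.2 and 0.3).

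Along exon 1 the planned measure, the share of counts in window number 3, was 7.64%, 7.45% and 8.80% in the IPs and 8.52%, 8.11% and 8.17% in the inputs, and the groups overlapped (7.96% ± 0.727 against 8.27% ± 0.224, SD, n = 3 each; exact permutation p = 0.5). Since window numbers follow the genome, the share was also taken over plus-strand genes, an alternative chosen after seeing the data. Window 3 then held 17.0%, 16.2% and 19.7% in the IPs and 14.7%, 15.2% and 15.3% in the inputs, with all IPs above all inputs. Windows 3 and 6 together held 34.9% ± 2.13 against 27.7% ± 0.934 (SD, n = 3 each; exact permutation p = 0.1, the smallest possible), and 37.1% ± 2.38 against 31.7% ± 1.39 without the 10 genes with the most exon 1 counts.

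The position of this excess was read from the other kept sets of windows. Plus-strand windows 1 and 4 held 29.6% ± 2.91 against 30.8% ± 1.79 (SD, n = 3 each; exact permutation p = 0.6), with overlap, while windows 4 and 7 held 35.1% ± 1.33 against 26.4% ± 0.676 and windows 5 and 8 held 37.8% ± 1.55 against 29.9% ± 1.99 (SD, n = 3 each; exact permutation p = 0.1 for both). The excess of the IPs was thus not seen at the first window itself. Windows 15 to 18 held 10.6% ± 1.06 in the IPs and 16.1% ± 1.43 in the inputs, and windows from number 63 on held 8.34% ± 1.88 and 13.7% ± 1.13 (SD, n = 3 each), with all IPs below all inputs in both.

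**Figure D5:**
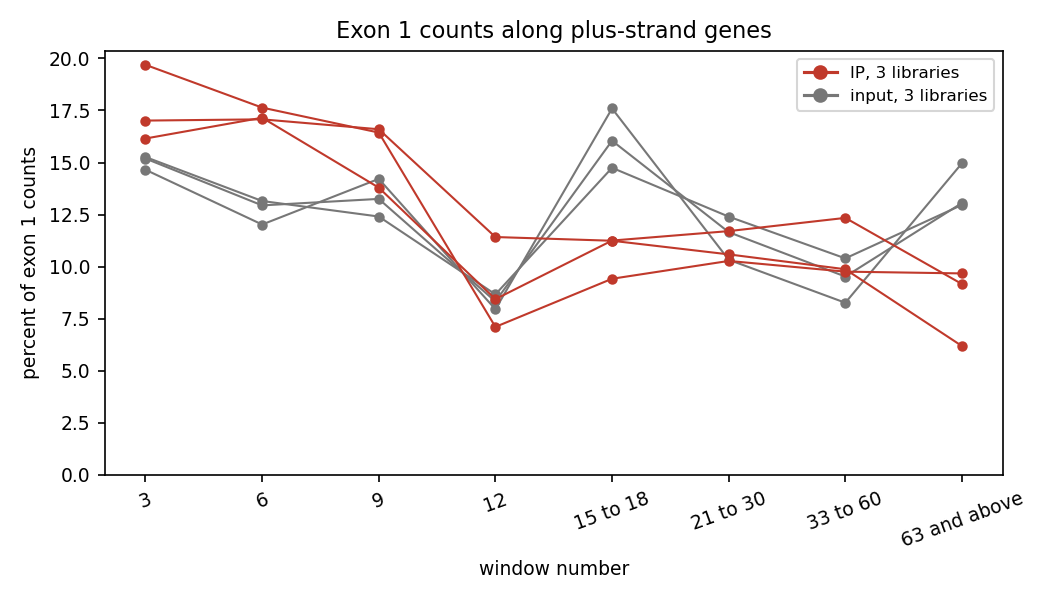
Percent of exon 1 counts by window number in plus-strand genes, 1 line per library, for windows 3, 6, 9, 12 and 4 bins of higher numbers. The IPs lie above the inputs at windows 3 and 6 and below them at windows 15 to 18 and from 63 on.

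Few first exons of the listed testis pathways had enough counts for a test. D1Pas1, Ddx3x and Ddx3y had no kept exon 1 window in a gene with a later exon. Their relative Ddx4, the germ cell helicase of the piRNA pathway, had 10, 1 and 7 exon 1 counts in the IPs and 1, 1 and 3 in the inputs, against 1, 1 and 2 and 2, 33 and 21 in its later exons. IP 2 was low, but in CPM still above the inputs, and Ddx4 was called only with the weaker filter (log2 fold change 5.26 ± 0.76, SE; edgeR adjusted p = 4.86e-10).

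For 31 piRNA pathway genes, 23 had members and 1, Tdrd6, was tested. Their summed exon 1 counts were 32.5%, 27.9% and 33.3% of their exonic counts in the IPs and 17.7%, 19.7% and 20.6% in the inputs. Tdrd6 and Ddx4 gave 21, 11 and 27 of the 27, 17 and 29 IP counts. Without both, a split made after seeing the data, the shares were 10%, 12.2% and 3.45% against 11.3%, 7.02% and 6.73%, and the groups overlapped. For 31 synapsis and recombination genes, 19 had members, only Stag3 was tested and it was higher, and the shares were 60.3%, 51.6% and 35.5% against 20.3%, 17.3% and 20.0%. Stag3 alone gave 33, 14 and 10 of the 35, 16 and 11 IP counts of that list, in the window dominated by 1 position, and without it 2, 2 and 1 counts remained. For 30 spermatid genes, 18 had members, only Tnp1 was tested and it was higher, and the shares were 23.0%, 20.2% and 24.7% against 21.6%, 17.0% and 20.5%, so the groups overlapped.

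The lists for translation had few exon 1 counts in the IPs. For 34 translation initiation genes, 25 had members and none passed the filter, and the exon 1 share was 9.19%, 5.80% and 4.97% in the IPs and 17.7%, 11.3% and 15.2% in the inputs. All IPs were below all inputs there, from 17, 8 and 9 exon 1 counts. Eif3c alone gave 58, 52 and 65 of the 168, 130 and 172 later exon counts of that list in the IPs. In the inputs it gave 1, 66 and 36 of 93, 1901 and 1329. Its exon 1 counts were 0, 0 and 0 in the IPs and 0, 3 and 3 in the inputs. Without Eif3c the share of IP 1 lies above that of input 2, so the separation of the groups rests on this 1 gene. For translation elongation, with 7 of 8 genes, the shares were 1.82%, 3.03% and 1.89% against 11.8%, 4.47% and 6.20%, from a single count in each IP. Eef2 gave 46, 30 and 48 of the 54, 32 and 52 later exon counts in the IPs, and 5, 159 and 90 of 15, 406 and 257 in the inputs. Those IP shares thus rest mainly on the later exons of 1 gene. For 77 cytosolic ribosomal proteins, 55 had members, none was tested, and the shares were 17.9%, 29.3% and 20.0% against 22.03%, 22.5% and 23.8%, with overlap.

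The remaining lists had no tested exon either. R-loop processing genes (16 of 25 with members) had 3.17%, 5% and 3.90% in the IPs, from at most 3 counts, and 7.14%, 5.70% and 5.80% in the inputs. Pachytene spermatocyte genes (17 of 23) had 19.5%, 8.86% and 11.2% against 10.3%, 6.75% and 8.29%, and regulators of mRNA in germ cells (21 of 28) had 25.4%, 19.4% and 22.7% against 17.9%, 19.7% and 15.3%, both with overlap. With the weaker filter, Nek2 of the spermatocyte list (15, 4 and 9 against 1, 14 and 13), Rps26 (3, 1 and 2 against 0, 1 and 2) and Spata18 of the spermatid list (10, 5 and 10 against 0, 15 and 11) were higher.

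Markers of cell types were read in the same exon 1 counts. Germ cell markers, 7 of 8 with members, summed to 272, 98.5 and 288 CPM in the IPs and 63.1, 52.3 and 35.1 CPM in the inputs, carried by Tnp1 and Ddx4, while Dazl, Sycp3, Ldhc and Tex101 were at 0 in each IP. Sertoli markers (8 of 10) summed to 15.1, 14.1 and 22.1 CPM against 19.7, 24.3 and 20.1 CPM, and Leydig markers (4 of 8) to 0, 7.04 and 0 against 15.8, 10.1 and 8.95 CPM. Peritubular and endothelial markers (5 of 8) had 0, 0 and 1 counts in the IPs. Macrophage markers (3 of 8) and red blood cell markers (2 of 6) had 0 in each IP. The part of these cells in the results was not tested.

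The genes called for exon 1 were last looked up in the P18 RNA-seq, a readout that the choice of windows did not use. D1Pas1 itself fell from 57.5, 79.8 and 127 CPM in the WT libraries to 15.2, 23.2 and 21.4 CPM in the KO (log2 fold change -2.14 ± 0.29, SE; edgeR adjusted p = 0.000974). Estimated counts assigned to the targeted gene were thus reduced and not absent. Whether the remaining ones came from D1Pas1 RNA was not tested. In such bulk samples, fewer cells of a type and less RNA per cell cannot be told apart. Of the 32 genes higher for exon 1, 28 were tested, of which 13 fell and 4 rose in the KO. Over 15722 genes tested, 15% fell and 3.19% rose. Single libraries moved these counts: 5 fell and 0 rose without the WT library numbered 8 in the table, 5 fell and 1 rose without the KO library numbered 12, and 2 rose without the KO library numbered 11.

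Pom121l2, related to a nuclear pore protein, fell the most, from 120, 159 and 152 CPM to 4.42, 7.83 and 8.72 CPM (log2 fold change -4.35 ± 0.24, SE; edgeR adjusted p = 1.91e-05). 4930453N24Rik fell from 113, 136 and 106 CPM to 54.0, 55.6 and 57.7 CPM (log2 fold change -1.09 ± 0.12, SE; edgeR adjusted p = 0.000275). Genotypes did not overlap in either gene. Ubap1 (-0.43), Stag3 (-0.48) and Bag6 (-0.48) fell by less on the log2 scale, with edgeR adjusted p of 0.0168, 0.013 and 0.0149. Gna14 rose from 35.6, 33.9 and 32.4 CPM to 47.4, 47.0 and 45.3 CPM (log2 fold change 0.46 ± 0.10, SE; edgeR adjusted p = 0.0112), and Nabp1, Ap1s2 and Cdv3 rose by 0.40, 0.39 and 0.34. Pds5b, Trim41, Hnrnpd, Oaz1 and Fam208b were among the 11 that did not pass, with log2 values of -0.01, -0.09, -0.09, 0.01 and 0.31.

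Tdrd6, tested for exon 1 and not called there, fell from 263, 332 and 290 CPM to 22.3, 51.4 and 41.9 CPM (log2 fold change -2.94 ± 0.28, SE; edgeR adjusted p = 0.000142). Of the 7 genes lower for exon 1, 4 were tested, of which Krba1 fell (-0.77 ± 0.11, SE) and Pank1 rose (0.62 ± 0.18, SE) on the log2 scale, with edgeR adjusted p of 0.00135 and 0.0474.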

How the data were processed

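The eCLIP tables hold counts of crosslink events per sliding window, as deposited by the authors without scaling, with the number of positions and the count of the fullest position as other columns. The submitters' processing notes name HTSeq, cutadapt 3.4 and mm10. The RNA-seq table at P18 holds estimated counts per gene, as deposited by the authors (24626 genes, 74.8% to 76.5% of values not whole per library), which were rounded before testing. No source used here names the aligner.

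Counts in windows with numbers divisible by 3 were summed per gene and region (exon 1, later exons, introns) and tested with edgeR 4.0.16 in R 4.3.3 (TMM factors, filterByExpr with a minimum count of 10, quasi-likelihood F-test, two-sided, with SE from the fold change and F, Benjamini-Hochberg over all features, threshold 0.05). Windows used the same library sizes and factors. The within-gene test was the interaction of region and fraction with a term per library and, beside filterByExpr, at least 10 counts per region. Shares per library (3 against 3) were compared by exact two-sided permutation in scipy 1.17.1. Where a group held 0 counts, a floor of 3 over the group gave a bound, and with 1 to 3 counts the ratio has an exact 95% interval. Counts of PCR copies are not independent, so intervals cover counting error only. Overlapping genes may share counts, and Stxbp3 and Stxbp3-ps, near-identical copies, are uncertain. Gene symbols were found for 15651 of 15684 member genes.

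Named are the 10 genes with the largest and the most negative exon 1 change among those called with no overlap of libraries, the 10 highest and lowest within-gene values, the 10 windows with the largest change and counts in every IP, and up to 4 genes per list. Genes singled out beyond that rule were chosen after their values were seen. The members and lists were chosen with earlier results of these data known. Alternatives were library totals, DESeq2 1.42.0, a weaker filter (6 counts), the other window sets, a replicate block and leaving out each library. Libraries of a group differed by more than sampling noise (chi-square per degree of freedom 1.29 to 2.11 between IPs and 9.22 to 17.8 between inputs). The fits were tested on simulated data. RNA-seq at other ages, small RNA and BisMapR samples were not used here. A few genes that met the naming rule are not reported here.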

Additional observations from a re-analysis of the deposited data

How the results depend on the processing

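The exon 1 share of exonic counts was higher in the IPs by 4.80 to 6.12 percentage points when single libraries were left out, and by 4.40 in the windows whose number leaves remainder 1. IPs lay above inputs in each of these and in the other alternatives run for it. With the weaker filter of 6 counts, calls in the per gene test rose to 193 higher and 88 lower, those of the window test to 244 higher and 33 lower, and those of the within-gene test to 93 higher. Windows with remainder 2 gave 4 lower genes and 5 lower windows. Without windows dominated by 1 position, 20 genes were higher and 3 lower, and 14 were higher within the gene. Scaling by library totals moved the median log2 change of all features by -0.15 and left 32 higher genes.

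Leaving out single libraries gave 37 to 65 higher and 3 to 11 lower genes, 26 to 43 higher and 4 to 21 lower windows, and 24 to 41 higher and 9 to 18 lower genes within the gene. All 32 higher genes were kept by DESeq2, library totals and the weaker filter, and 29 to 32 when a library was left out. The windows with remainder 1 and those with remainder 2 each kept 27 of the 32. Recomputed values of named genes and windows numbered 505. Of these, 469 kept direction and side of the threshold, and 36 fell short of it in the same direction. A gene or window that was not tested under an alternative has no value there and is not among the 505. Oaz1 had no value when any input library was left out. Fam208b and Gna14 had none without the windows dominated by 1 position. Those 36 concerned 4 lower genes of the per gene test (among them Thap12, Krba1 and Gm32352) and 6 of the within-gene test (Pank1, Sugp1, Adam5, Ulk2, Hyal6 and Smg1), all with few or no IP counts. The cause was not tested.

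The position number at a total of 3 differed by -0.0867 to 0.130 when single libraries were left out, by -0.0957 at a total of 2 and by 0.597 at a total of 5. The count of the fullest position differed by -0.130 to 0.0867, 0.0957 and -0.533 in the same order. The share in the first window differed by -0.719 to -0.0484 percentage points when single libraries were left out, by -3.28 and -2.26 in the windows with remainder 1 and 2, by 0.384 without the 10 genes with most exon 1 counts, and, on the plus strand, by 2.58 for window 3 and 7.17 for windows 3 and 6. For the P18 test, library totals gave 7 genes that rose. Leaving out single libraries gave 0 to 4 that rose and 5 to 14 that fell.

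Same-numbered IP and input libraries did not deviate together (correlations 0.0067, -0.14 and -0.081), and IP 3 correlated best with input 2. With the replicate block, 33 genes were higher and 8 lower, 23 windows were higher and 8 lower, and 18 genes were higher and 9 lower within the gene. No paired analysis was possible for the P18 table because its columns carry no replicate number of the labels. With 99602 to 142435 counts per IP, most first exons had too few counts for a test.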
